A study of Mus musculus with 8 samples.

Results

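Long intergenic noncoding RNAs (lincRNAs) were followed in E14 mouse embryonic stem cells (ESCs) during the conversion from serum medium to 2i. The members are genes of the lincRNA class in GENCODE M21 whose counts, as CPM (the usual scaling of a count to its library total), averaged 2 or more over the 8 libraries, without the imprinted lincRNAs H19, Meg3, Rian, and Mirg. Of the 37263 Ensembl genes in the count tables, 1070 were lincRNAs, 439 of these had at least 1 count in any library, 44 reached the limit, and 42 remained as members after the imprinted genes were removed. The members were chosen by their mean level, so levels are given as a description, whereas differences between times and treatments did not enter the rule. All 42 members passed the filter on low counts used for testing.

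E14 is an ESC line of the 129/Ola strain that was grown without feeder cells, with LIF in 15% fetal calf serum. The time course began with the switch to 2i, a defined medium without serum that blocks MEK (by PD0325901) and GSK3 (by CHIR99021) and was also given with LIF. The 2i libraries were made 4, 16, 24, and 32 hr after this change, and the 2i+vitC libraries at the same times with 17 µM vitamin C (vitC) added to 2i. Each combination of time and treatment was 1 library, so no comparison rests on replicate cultures, and serum libraries were not analysed here.

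Libraries were made from RNA freed of ribosomal RNA without a poly(A) selection, so that lincRNAs without a poly(A) tail can be counted. The totals were 12940716 to 18434932 counts in 2i and 4753528 to 13157570 counts in 2i+vitC. Lane 8 carried the libraries of 4 hr and 24 hr, and lane 7 those of 16 hr and 32 hr, so 24 hr against 4 hr and 32 hr against 16 hr lie within a lane. For 16 hr and 32 hr against 4 hr, lane and time cannot be told apart. Reads on Lars2 and on 2 features with a similar profile took 0.0113% and 0.0277% of the counts at 4 hr and 0.206% to 7.11% later. The summed level of 8 ESC markers was 1550 to 1963 CPM, and that of 8 primitive endoderm markers was 13.6 to 34.3 CPM, while 5 markers of 2-cell-like cells summed to 4.42 to 7.33 CPM. The summed level of 7 fibroblast markers was 96.4 and 116 CPM at 4 hr and 261 to 676 CPM later, nearly all of it Col1a1 and Col1a2, while Lum was at 0 to 0.429 CPM. The part of these shifts in the results on time was not tested. In bulk RNA, fewer cells that express a lincRNA and less of it per cell cannot be told apart.

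LincRNAs are transcribed from their own promoters between protein-coding genes, are often spliced, and are usually retained in the nucleus. Some act as scaffolds, such as Neat1, on which the paraspeckle is assembled, and others serve mainly as precursors of small RNAs, such as the host genes of microRNAs and small nucleolar RNAs. In ESCs several lincRNAs are switched on or off with the pluripotent state, and the Platr genes are named as pluripotency-associated transcripts.

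Levels of the lincRNAs spanned a wide range, with Malat1 far above all others. Malat1, a nuclear speckle RNA, was at 9748, 7909, 11643, and 8522 CPM in 2i at 4, 16, 24, and 32 hr and at 8766, 9408, 10930, and 7283 CPM in 2i+vitC. Both 24 hr libraries held its highest levels and the groups otherwise overlapped. The 42 members together took 0.92% to 1.37% of a library, of which Malat1 alone was 0.735% to 1.15%. There were 5 members over 100 CPM (Malat1, Gm42743, Lncenc1, Neat1, and 1700020I14Rik), 13 between 10 and 100 CPM, and 24 under 10 CPM. Per kilobase of merged exon length the mean levels were 1328 CPM per kb for Malat1, 580 for Gm42743, 63.8 for Lncenc1, 42 for Epb41l4aos, and 28.4 for Platr3. Neat1, with 20771 bases of exon, was at 9.57 CPM per kb. Just inside the limit were 4632404H12Rik at 2.40 CPM, Gm6712 at 2.23 CPM, and Platr20 at 2.16 CPM, and just outside it were Gm16046 at 1.93 CPM, Gm12319 at 1.82 CPM, and Dubr at 1.82 CPM.

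The annotation of several members was not clear-cut. Of the 34 members matched to RefSeq, 6 are protein-coding there, namely Tmem250-ps, EU599041, Gm1070, Gm6712, 1810058I24Rik, and Gm38399. 1810058I24Rik encodes a small mitochondrial membrane protein, and RefSeq treats Gm38399 as part of Nav1. Exons of 3 members overlap a protein-coding gene on the same strand in GENCODE M21, namely Gm42743 with the histone gene Hist2h2bb, Gm20707 with Zfp984, and Gm38399 with Nav1. Exons of 8 members overlap another gene on the opposite strand: Malat1, Gm42743, Tmem250-ps, AI480526, Ftx, A530017D24Rik, Trp53cor1, and Gm15675. The kit does not mark strand. Levels of these members may therefore include reads of the overlapping gene. The GENCODE M21 identifier of Hist2h2bb is not in the count tables, so the high level of Gm42743 may include reads of this histone gene.

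The members varied less over the 8 libraries than their levels differed from each other. The highest library exceeded the lowest by 1.46 to 7.53 times, with a median of 1.91. The smallest ratio was that of 5031425E22Rik and the largest that of 4933427D06Rik.

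**Figure D1:**
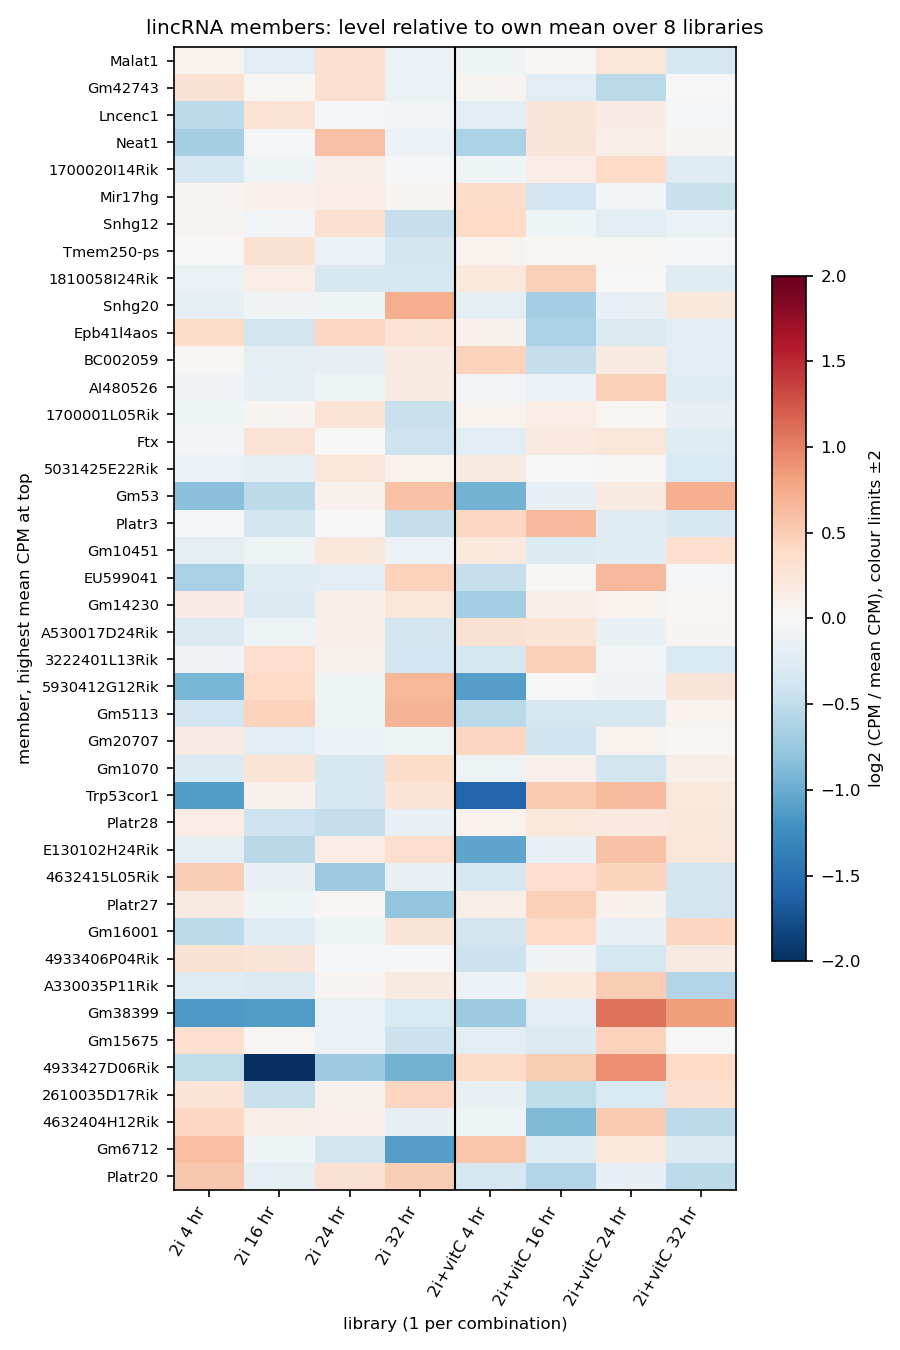
Heat map of the 42 lincRNAs (rows, highest mean CPM at the top) in the 8 libraries (columns, 2i on the left and 2i+vitC on the right), coloured by the log2 ratio of the TMM-scaled CPM to the member's own mean. Trp53cor1, Gm53, and 5930412G12Rik are blue in both 4 hr columns, and 4933427D06Rik is blue in the 4 columns of 2i and red in those of 2i+vitC.

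The first question was which lincRNAs changed as cells left serum. Levels were scaled with edgeR's TMM factors and the 14931 genes that reached 1 CPM in 2 or more libraries were tested with edgeR's quasi-likelihood model, in which time and treatment act additively. Adjusted p-values are Benjamini-Hochberg values over all genes tested, with a threshold of 0.05. The error of this model is the departure from a time course common to both treatments, with 3 residual degrees of freedom. In all, 9 of the 42 lincRNAs passed the threshold between any 2 of the times compared, and 33 did not pass. Of the 9, 8 were higher and 1 was lower at the later time. The share of all genes that passed in at least 1 comparison was not counted, so these counts cannot be set against it. Shares of all genes are given below for each comparison. Neat1 and Trp53cor1 passed in 3 comparisons, Lncenc1, Gm53, and 5930412G12Rik in 2, and 1700020I14Rik, Gm38399, Snhg20, and Epb41l4aos in 1.

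Between 4 hr and 24 hr, within a lane, Neat1, Trp53cor1, Gm38399, Gm53, 1700020I14Rik, and Lncenc1 rose. These 6 were 14.3% of the 42 lincRNAs, while 11.5% of all genes tested rose. No lincRNA fell, whereas 8.98% of all genes fell. With edgeR, 9 of the 42 lincRNAs and 5154 of the 14931 genes tested had an unadjusted p-value under 0.05. DESeq2 called 5 lincRNAs and 2892 of all genes. The median log2 fold change was 0.08 over the lincRNAs and 0.01 over all genes, and 25 lincRNAs had a positive and 17 a negative value.

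Neat1, the scaffold RNA of paraspeckles, was at 126, 193, 300, and 182 CPM in 2i and at 129, 239, 216, and 206 CPM in 2i+vitC at 4, 16, 24, and 32 hr. Both 4 hr libraries lay below all later ones. At 24 hr the log2 fold change against 4 hr was 1.03 (SE 0.176, edgeR adjusted p = 0.00209), or 2.04-fold, and it was 0.76 at 16 hr (adjusted p = 0.0134) and 0.61 at 32 hr (adjusted p = 0.0235). After a correction for GC content and length the log2 fold changes in edgeR were 0.62 at 24 hr (adjusted p = 0.0335), 0.47 at 16 hr (adjusted p = 0.0944), and 0.40 at 32 hr (adjusted p = 0.131).

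Trp53cor1, also called lincRNA-p21, is a p53-induced transcript that lies beside Cdkn1a. Its level was 2.15, 4.99, 3.68, and 5.64 CPM in 2i and 1.57, 6.77, 7.29, and 5.42 CPM in 2i+vitC. Both 4 hr libraries lay below all 6 later ones. At 4 hr these levels rest on 37 counts in 2i and 21 counts in 2i+vitC, and the Wilson 95% intervals, which cover counting error only, were 1.56 to 2.97 CPM and 1.02 to 2.40 CPM. The log2 fold change was 1.60 at 16 hr (SE 0.402, edgeR adjusted p = 0.0194), 1.44 at 24 hr (SE 0.417, adjusted p = 0.0283), and 1.54 at 32 hr (SE 0.400, adjusted p = 0.0147). Without the 2i+vitC library at 24 hr the 24 hr value was 0.97 (adjusted p = 0.299), and without that at 4 hr it was 1.04 (adjusted p = 0.213).

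Gm53 is nearest to the homeobox gene Hoxb9. It was at 7.10, 8.78, 13.4, and 19 CPM in 2i and at 6.57, 11.2, 14.4, and 20.7 CPM in 2i+vitC. Each later time was above the one before it in both treatments. Relative to 4 hr its log2 fold change was 1.02 at 24 hr (SE 0.236, edgeR adjusted p = 0.0106) and 1.53 at 32 hr (SE 0.229, adjusted p = 0.000667), against 0.53 at 16 hr (adjusted p = 0.143).

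Lncenc1, an ESC-expressed lincRNA that is also listed as Platr18, was at 146, 256, 206, and 204 CPM in 2i and at 179, 251, 237, and 206 CPM in 2i+vitC. The highest library of each treatment was that at 16 hr and the lowest that at 4 hr. Against 4 hr the log2 fold change was 0.65 at 16 hr (SE 0.140, edgeR adjusted p = 0.00968) and 0.45 at 24 hr (SE 0.140, adjusted p = 0.0402), and at 32 hr it was 0.34 (adjusted p = 0.0929).

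1700020I14Rik is Oip5os1, known as Cyrano, a conserved lincRNA that triggers the decay of miR-7 through a long complementary site. It was at 109, 129, 151, and 135 CPM in 2i and at 130, 152, 181, and 115 CPM in 2i+vitC. The highest level of each treatment was that at 24 hr, and the lowest library was the 4 hr one in 2i but the 32 hr one in 2i+vitC. Its log2 fold change was 0.47 at 24 hr (SE 0.154, edgeR adjusted p = 0.0474), and at 32 hr it was 0.07 (adjusted p = 0.767). The site that gives Cyrano its known role was found by its match to the miR-7a seed, and it is shown with mature miR-7a so that the pairing can be read. It spans bases 2932 to 2959 of the GENCODE M21 transcript, which has 8300 bases and holds 2 seed matches, and 14 of the 15 bases of miR-7a past position 8 are complementary to it when 2 bases of the transcript are left unpaired. The capitals mark the seed (bases 2 to 8, RefSeq) and the bases opposite to it.
miR-7a-5p: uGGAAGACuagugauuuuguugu
Cyrano site: agaacaacaaaatcaccaatGTCTTCCa

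Gm38399 was at 1.28, 1.31, 2.58, and 2.30 CPM in 2i and at 1.72, 2.45, 6.0, and 5.08 CPM in 2i+vitC. The 24 hr library was the highest in each treatment. At 24 hr the log2 fold change was 1.40 (SE 0.457, edgeR adjusted p = 0.0471), and it rests on 22 and 23 counts at 4 hr and 33 and 28 counts at 24 hr. It kept its side of the threshold in 4 of 17 alternatives, the fewest of the 6.

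The 24 hr rises depended on single libraries and on the model. A fit without a 4 hr or a 24 hr library leaves 1 library at that time, and fewer of all genes passed in it as well. Without the 2i library at 24 hr, 2 of the 6 passed in edgeR (Neat1 and Trp53cor1), without the 2i library at 4 hr 3 passed (Neat1, Gm53, and Trp53cor1), and without the 2i+vitC library at 4 hr or at 24 hr only Neat1 passed. Without TMM scaling 3 passed (2946 of all genes, against 3061 in the main fit), and without the treatment term 3 passed (1889 of all genes). With the share of reads on Lars2 features as a covariate 0 passed, with 1 lincRNA at an unadjusted p-value under 0.05. In that fit 0 of all 14931 genes passed either, and the log2 fold change of Neat1 was 0.36 and that of Lncenc1 0.89. The covariate was lowest in both 4 hr libraries.

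**Figure D2:**
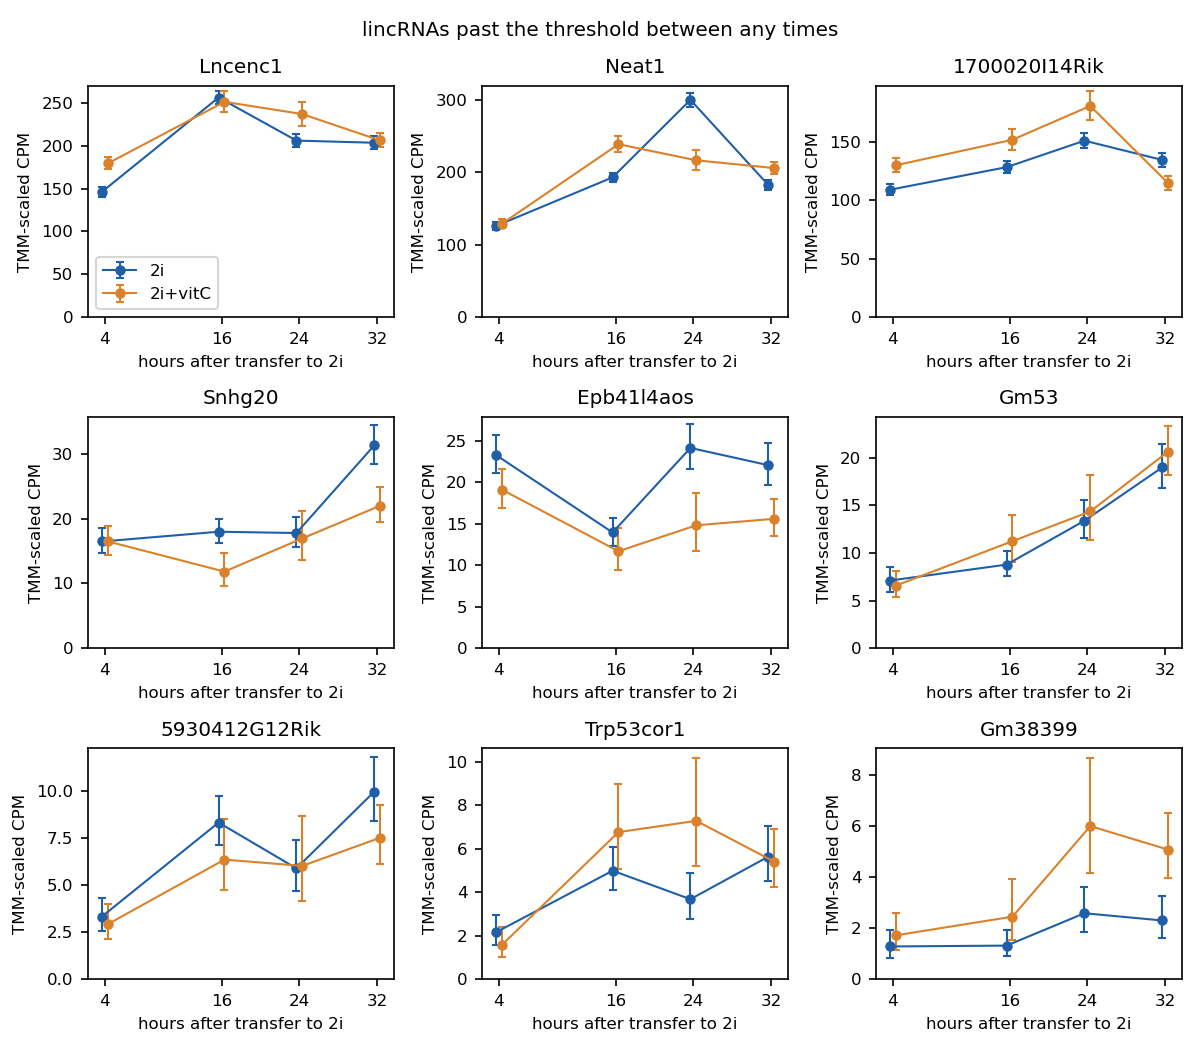
Level (TMM-scaled CPM, axis from 0) against hours after transfer to 2i for the 9 lincRNAs past the threshold between any times, with 1 library per point and bars for Wilson 95% intervals (counting error only). Gm53 is higher at each later time in both treatments, from 7.10 to 19 CPM in 2i, while Epb41l4aos is lowest at 16 hr.

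Between 4 hr and 16 hr, 4 lincRNAs rose (9.52% of members, against 9.16% of all genes) and 1 fell (2.38%, against 7.24% of all genes). The rises were Trp53cor1, 5930412G12Rik, Neat1, and Lncenc1. 5930412G12Rik is the RefSeq gene Fzd10os, transcribed opposite to the Wnt receptor gene Fzd10. It was at 3.32, 8.31, 5.87, and 9.95 CPM in 2i and at 2.91, 6.34, 6.0, and 7.50 CPM in 2i+vitC. Both 4 hr libraries lay below the 6 later ones, and the log2 fold change was 1.23 at 16 hr (SE 0.30, edgeR adjusted p = 0.0167), 0.91 at 24 hr (adjusted p = 0.0558), and 1.48 at 32 hr (SE 0.295, adjusted p = 0.00362).

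Epb41l4aos, named for its place opposite to Epb41l4a, was the lincRNA that fell by 16 hr. It was at 23.3, 13.9, 24.1, and 22 CPM in 2i and at 19.1, 11.7, 14.8, and 15.6 CPM in 2i+vitC. The 16 hr library was the lowest of each treatment, and the log2 fold change to 16 hr was -0.73 (SE 0.210, edgeR adjusted p = 0.0331), against -0.13 to 24 hr (adjusted p = 0.690). Of the 5 calls at 16 hr, 1 remained without the 2i 16 hr library (Neat1) and 1 without either 2i+vitC library of the 2 times (Lncenc1). Without the 2i 4 hr library Trp53cor1 remained and Mir17hg was also called, and with the Lars2 covariate 0 lincRNAs and 73 of all genes passed, with 2 lincRNAs whose unadjusted p-value was under 0.05.

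Between 4 hr and 32 hr, 5 lincRNAs rose (11.9% of members, against 13.5% of all genes), and none fell, against 11.8% of all genes. DESeq2 also called 5 lincRNAs, and 3432 of all genes. In edgeR 12 lincRNAs and 5771 of the 14931 genes tested had an unadjusted p-value under 0.05. The rises were Trp53cor1, Gm53, 5930412G12Rik, Snhg20, and Neat1. Snhg20, a host gene of a small Cajal body RNA, was at 16.5, 18, 17.8, and 31.3 CPM in 2i and at 16.5, 11.8, 16.9, and 22 CPM in 2i+vitC. The 32 hr library was the highest in each treatment, and the log2 fold change was 0.67 (SE 0.216, edgeR adjusted p = 0.0377). Without the 2i 32 hr library 1 of the 5 passed (Gm53), without the 2i+vitC 4 hr library 2 passed (Gm53 and 5930412G12Rik), and without the 2i+vitC 32 hr library Gm53 and 5930412G12Rik passed together with EU599041. A fall at 32 hr was called in 5 alternatives, for Snhg12, Gm6712, or Mir17hg. After all libraries were thinned to the smallest total 3 passed, and with the Lars2 covariate 0 lincRNAs and 158 of all genes passed, with 6 lincRNAs whose unadjusted p-value was under 0.05.

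Between 16 hr and 32 hr, within a lane, no lincRNA passed the threshold in edgeR. Of all genes 0.335% rose and 0.248% fell. An unadjusted p-value under 0.05 was found for 7 lincRNAs and for 2128 of the 14931 genes tested. The log2 fold change of Gm53 was 1.00 (SE 0.227, adjusted p = 0.0698), that of Snhg20 was 0.83 (adjusted p = 0.117), and that of 1810058I24Rik was -0.61 (adjusted p = 0.131). DESeq2 called 1 lincRNA (Gm53) and 239 of all genes. Without a filter on low counts edgeR called 2 (Snhg20 and Gm53) and 589 of all genes, against 87 of all genes with the filter.

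Regardless of the test, 8 lincRNAs had both 4 hr libraries below all 6 later ones (19% of members, against 18.7% of all genes). Beside Lncenc1, Neat1, Gm53, 5930412G12Rik, and Trp53cor1 these were EU599041, Gm5113, and Gm16001. Only Gm20707 and Gm6712 had both 4 hr libraries above all later ones (4.76%, against 19% of all genes). Gm6712 was at 3.38, 2.10, 1.72, and 1.04 CPM in 2i and at 3.28, 1.87, 2.57, and 1.83 CPM in 2i+vitC, with a log2 fold change of -1.24 at 32 hr (edgeR adjusted p = 0.0765).

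The other named lincRNAs did not pass between any times. Mir17hg, the host of the miR-17 to miR-92 cluster, ranged from 59.3 to 105 CPM, with the lowest level in 2i+vitC at 32 hr and the highest in 2i+vitC at 4 hr. Snhg12, a host of small nucleolar RNAs, ranged from 38.8 to 70.2 CPM. Ftx, a lincRNA of the X inactivation centre, ranged from 10.2 to 16.6 CPM. The Platr members were Platr3 at 8.39 to 18.3 CPM, Platr28 at 2.98 to 4.83 CPM, Platr27 at 1.86 to 4.47 CPM, and Platr20 at 1.44 to 3.14 CPM, and at 24 hr their log2 fold changes were -0.27, -0.28, -0.09, and -0.08. The remaining named members, Tmem250-ps, BC002059, AI480526, and EU599041, ranged from 33.3 to 53.1, 12.8 to 24.5, 12.7 to 21, and 5.59 to 13.7 CPM.

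By kind of name, 3 of the 17 lincRNAs with a gene name rose from 4 hr to 24 hr, as did 2 of the 11 Gm gene models and 1 of the 14 Rik clones. The Gm models and Rik clones that passed at no time contrast lay mostly under 10 CPM. Under 30 counts in at least 1 library were found for 20 of the 42 members.

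**Figure D3:**
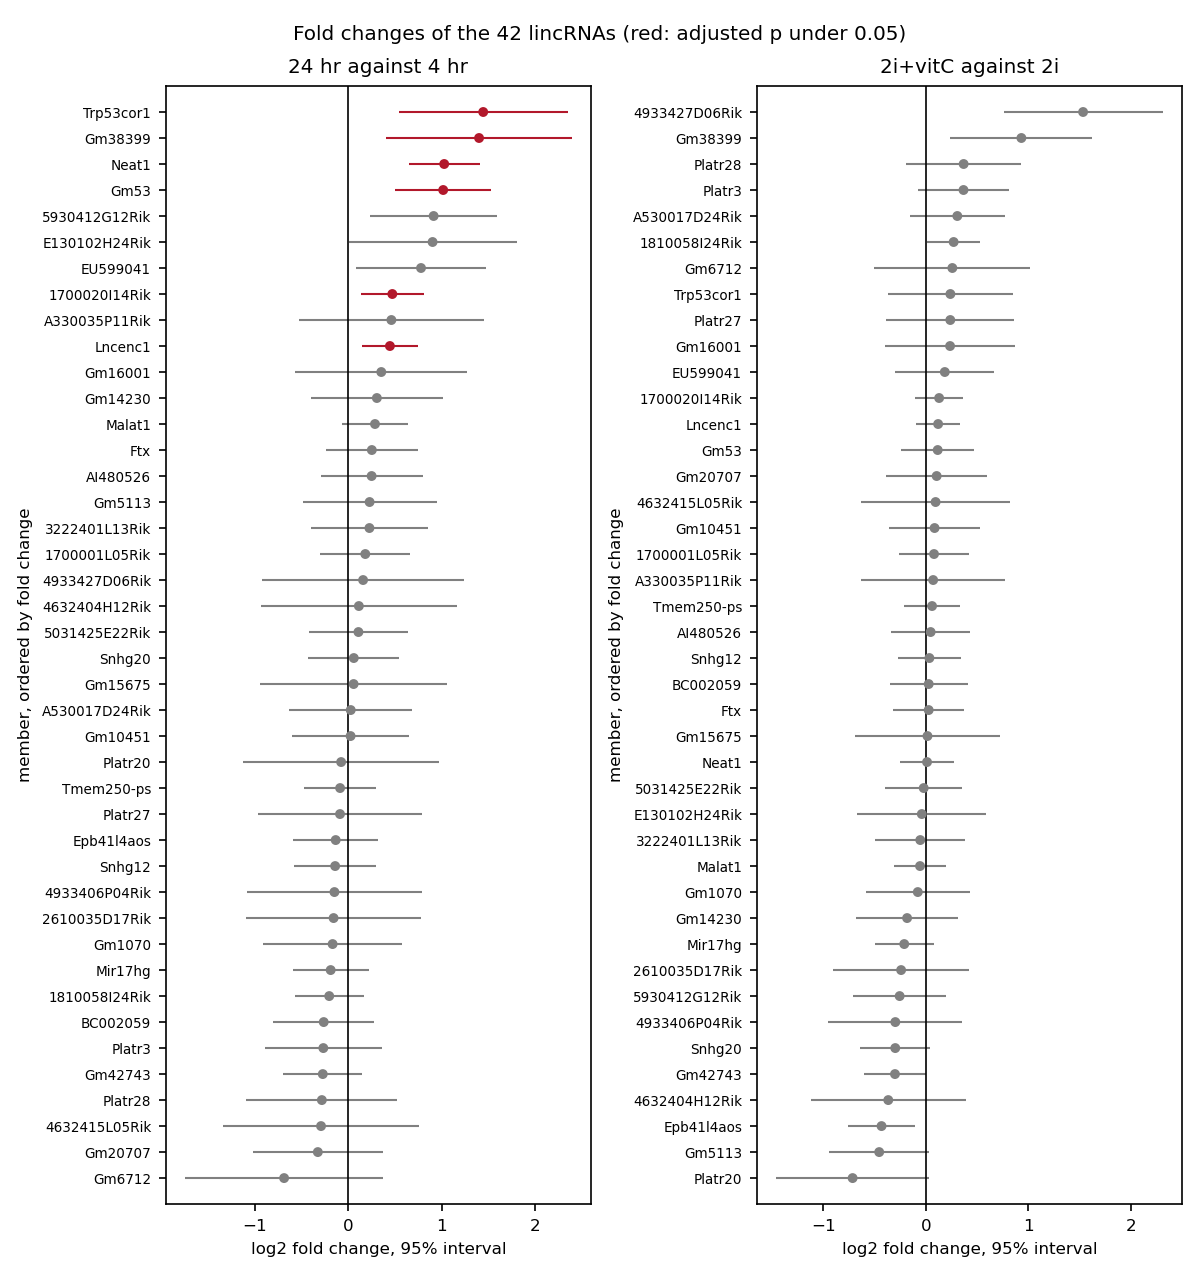
Log2 fold changes of the 42 lincRNAs with 95% intervals from the edgeR model, for 24 hr against 4 hr (left) and for 2i+vitC against 2i (right), each ordered by value, with adjusted p-values under 0.05 in red. On the left 6 lincRNAs are red and all lie above 0, from 0.45 to 1.44, and on the right none is red.

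Promoter windows (250 bases before to 50 after the start, RefSeq, GRCm38.p6) were at hand for 27 members. They are shown for 3 of the lincRNAs that passed between times, Lncenc1, 1700020I14Rik, and Snhg20, to show what surrounds the start of each. Neat1, Trp53cor1, Gm53, and 5930412G12Rik have no entry, and Gm38399 and Epb41l4aos are not shown. The motifs searched on both strands were TATAAA for the TATA-binding protein, CCAAT for NF-Y, GGGCGG for SP and KLF factors, CACGTG for E-box factors, TGACGTCA for CREB, CCGGAAG for ETS factors, TCAAAG for TCF/LEF factors, and ATGCAAAT for POU factors, and capitals mark every match. Matches on either strand were counted, and none of the printed matches overlap each other.
Lncenc1 (chr13:97434720-97435019, plus strand): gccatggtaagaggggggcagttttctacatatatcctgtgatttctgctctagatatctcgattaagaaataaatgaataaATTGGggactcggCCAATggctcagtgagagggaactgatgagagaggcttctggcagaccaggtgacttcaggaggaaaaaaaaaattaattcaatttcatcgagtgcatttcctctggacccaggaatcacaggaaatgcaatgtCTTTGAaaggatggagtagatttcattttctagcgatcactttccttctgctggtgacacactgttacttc
1700020I14Rik (chr2:119594046-119594345, plus strand): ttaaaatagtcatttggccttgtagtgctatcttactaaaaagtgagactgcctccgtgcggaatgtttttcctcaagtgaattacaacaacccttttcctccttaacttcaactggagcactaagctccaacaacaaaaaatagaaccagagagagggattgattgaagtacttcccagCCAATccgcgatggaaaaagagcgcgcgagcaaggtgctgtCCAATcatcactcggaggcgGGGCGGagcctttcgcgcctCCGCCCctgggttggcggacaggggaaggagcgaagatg
Snhg20 (chr11:117076533-117076832, plus strand): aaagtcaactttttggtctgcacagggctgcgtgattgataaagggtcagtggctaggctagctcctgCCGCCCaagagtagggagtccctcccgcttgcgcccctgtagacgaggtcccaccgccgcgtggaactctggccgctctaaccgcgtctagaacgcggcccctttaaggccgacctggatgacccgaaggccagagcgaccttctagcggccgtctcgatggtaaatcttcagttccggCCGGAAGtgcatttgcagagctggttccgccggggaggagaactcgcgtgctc

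The windows differed in base composition and in their motifs. G and C made up 42.3% of the Lncenc1 window, 50% of the 1700020I14Rik window, and 61% of the Snhg20 window, with 4, 15, and 25 CpG dinucleotides, against a median of 52.7% and 7 over all 32851 windows. CCAAT was in the windows of Lncenc1 and 1700020I14Rik, and 37.4% of all windows held it. GGGCGG was in the windows of 1700020I14Rik and Snhg20, against 35.7% of all windows. TCAAAG, the core read by TCF/LEF factors of the Wnt pathway, was in the Lncenc1 window (16% of all windows), and CCGGAAG was in the Snhg20 window (8.86% of all windows). TATAAA (13.6%), CACGTG (7.15%), TGACGTCA (1.79%), and ATGCAAAT (1.74%) were in none of the 3 windows. No motif was in all of them.

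The nearest protein-coding gene of each lincRNA was then set beside it, since some lincRNAs act on genes nearby. Trp53cor1 and Cdkn1a, the CDK inhibitor gene induced by p53, both rose. Cdkn1a was at 45.0, 67.8, 87.6, and 73.4 CPM in 2i and at 36.6, 124, 153, and 95.1 CPM in 2i+vitC, with a log2 fold change of 1.47 at 24 hr (edgeR adjusted p = 0.00137). For both genes the 4 hr libraries were the lowest. Nav1, which shares exons with Gm38399, also rose by 24 hr (log2 fold change 1.15, edgeR adjusted p = 0.0147). Enc1, which is nearest to Lncenc1 but 181936 bases away, fell (-0.57, edgeR adjusted p = 0.0237). Frmd8, the neighbour of Neat1, also fell (-0.61, edgeR adjusted p = 0.00946). Hoxb9, the neighbour of Gm53, was at 1.05 to 3.00 CPM (0.86, edgeR adjusted p = 0.328). Fzd10, opposite to 5930412G12Rik, was at 20.8 to 34.0 CPM (0.51, edgeR adjusted p = 0.102). Oip5, the neighbour of 1700020I14Rik, did not pass (-0.18, edgeR adjusted p = 0.59). Sec14l1, the neighbour of Snhg20, rose by 24 hr (0.66, edgeR adjusted p = 0.0071) and, as Snhg20 did, by 32 hr (0.76, edgeR adjusted p = 0.00211). By 16 hr Epb41l4a, opposite to Epb41l4aos, had a value of 0.37 (edgeR adjusted p = 0.219).

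Over all members the relation of lincRNA and neighbour varied with the comparison. Among the 36 pairs in which both genes were tested, 21 had the same sign of change from 4 hr to 24 hr, 18 to 16 hr, and 18 to 32 hr, with a Pearson r across pairs of 0.32, 0.10, and 0.19 and a Spearman rho of 0.17, -0.02, and 0.18. From 16 hr to 32 hr 21 pairs had the same sign (r -0.09, rho -0.02), and for vitC 17 did (r 0.32, rho 0.15). These pairs come from the same 8 libraries and are not independent replicates. They include Gm38399 with Nav1 and Gm20707 with Zfp984, whose exons overlap on the same strand. The values without these overlapping pairs were not computed. Of the 15 pairs within 1 kb of each other in GENCODE M21, 8 had the same sign from 4 hr to 24 hr, and 6 or 7 in the other comparisons.

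**Figure D4:**
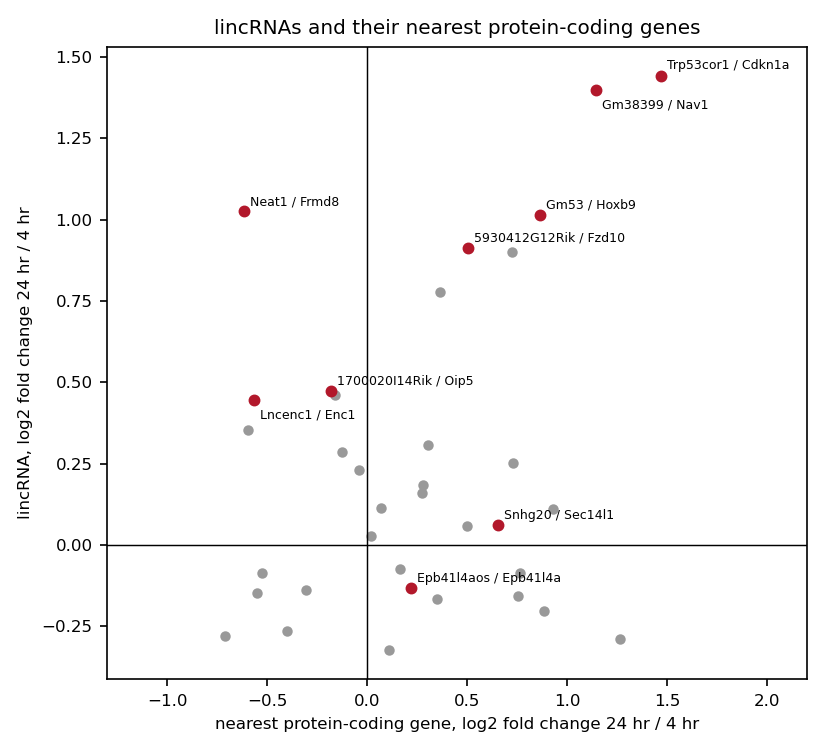
Log2 fold change from 4 hr to 24 hr of each lincRNA (vertical) against that of its nearest protein-coding gene (horizontal) for 36 pairs, with the 9 lincRNAs past the threshold between any times in red and labelled. Trp53cor1 and Cdkn1a lie at the upper right (1.44 and 1.47), and Neat1 and Frmd8 at the upper left (1.03 and -0.61).

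Genes listed for paraspeckles and for X inactivation moved in both directions. Of the paraspeckle proteins reported here, which bind Neat1, Hnrnph3 and Smarca4 rose between 4 hr and 24 hr in edgeR (log2 fold changes of 1.12 and 0.51, adjusted p = 0.0113 and 0.0431) and Rbm3 fell (-0.47, adjusted p = 0.0439). The core paraspeckle proteins Sfpq, Nono, and Pspc1 did not pass at 24 hr, with log2 fold changes of 0.31, -0.26, and -0.04. Pspc1 fell by 16 hr (-0.48, edgeR adjusted p = 0.0419) and by 32 hr (-0.47, adjusted p = 0.0328), whereas Sfpq and Nono did not pass at these times. Among 8 tested genes of X inactivation, Spen rose (0.99) and Cnbp and Rlim fell (-0.88 and -0.48), whereas the lincRNA Ftx had a log2 fold change of 0.25 (edgeR adjusted p = 0.462). Xist itself was at 0 to 0.25 CPM and was not tested. In this list 2 fell and 0 rose by 16 hr and likewise by 32 hr, and for vitC 0 passed. Of all genes, 11.5% rose and 8.98% fell by 24 hr. By 16 hr 9.16% rose and 7.24% fell, and by 32 hr 13.5% rose and 11.8% fell.

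The second question was whether vitC altered the lincRNAs. In edgeR with time as a block, no lincRNA passed the threshold in either direction, whereas 0.107% of all genes were higher and 0.0603% lower with vitC. An unadjusted p-value under 0.05 was found for 4 lincRNAs and for 2062 of all genes. DESeq2 called 1 of these lincRNAs, 4933427D06Rik, and 299 of all genes. The median log2 fold change was 0.04 over the lincRNAs and -0.02 over all genes, and their standard errors had a median of 0.212.

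4933427D06Rik, a clone of unknown function, had the highest vitC fold change of the 42. It was at 1.92, 0.683, 1.64, and 1.41 CPM in 2i and at 3.51, 3.89, 5.15, and 3.58 CPM in 2i+vitC. Every 2i+vitC library lay above every 2i library, and the counts were 13 to 33 in 2i and 24 to 47 in 2i+vitC. The share of all genes separated in this way was not counted. At 4 hr the Wilson 95% intervals overlapped, with 1.37 to 2.70 CPM in 2i and 2.64 to 4.66 CPM in 2i+vitC. Across times the log2 fold change was 1.54 (SE 0.359, 95% interval 0.76 to 2.31, edgeR adjusted p = 0.0808). The log2 ratios with a prior count of 2 at 4, 16, 24, and 32 hr were 0.82, 2.26, 1.56, and 1.25. It passed in 5 of 17 alternatives: the adjusted p-value was 0.0196 in DESeq2, and in edgeR it was 0.00147 without a filter on low counts, 0.0411 without both 4 hr libraries, 0.0312 without the 2i 4 hr library, and 0.0345 without the 2i+vitC 4 hr library. In the other 12 it ranged from 0.0746 to 0.965, among them 0.29 without the 2i 16 hr library, 0.436 without the 2i 24 hr library, 0.479 without the 2i+vitC 24 hr library, 0.426 with the Lars2 covariate, and 0.965 without the time block. In each of the 5 settings where 4933427D06Rik passed, more of all genes passed than the 25 of the main edgeR fit. The count was 299 in DESeq2, 690 without a filter on low counts, and 399 without both 4 hr libraries. Tpra1, the protein-coding gene nearest to 4933427D06Rik, had a log2 fold change of 0.08 with vitC (edgeR adjusted p = 0.926).

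The lincRNAs higher with vitC at all 4 times were 3 (7.14% of members, against 11% of all genes), and those lower at all 4 times were 4 (9.52%, against 10.7% of all genes). Beside 4933427D06Rik the higher ones were Gm38399 (0.93, edgeR adjusted p = 0.209) and 1810058I24Rik (0.27, adjusted p = 0.334). Nav1, which overlaps Gm38399, had a vitC log2 fold change of 0.98 (edgeR adjusted p = 0.0570). The lower ones were Platr20 (-0.71, adjusted p = 0.388), Gm5113 (-0.45, adjusted p = 0.402), Epb41l4aos (-0.43, adjusted p = 0.212), and 2610035D17Rik (-0.24, adjusted p = 0.779). Among the 5 highest values were also Platr28 (0.37), Platr3 (0.37), and A530017D24Rik (0.31), and among the 5 lowest 4632404H12Rik (-0.37) and Gm42743 (-0.30), none with one direction at all times.

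**Figure D5:**
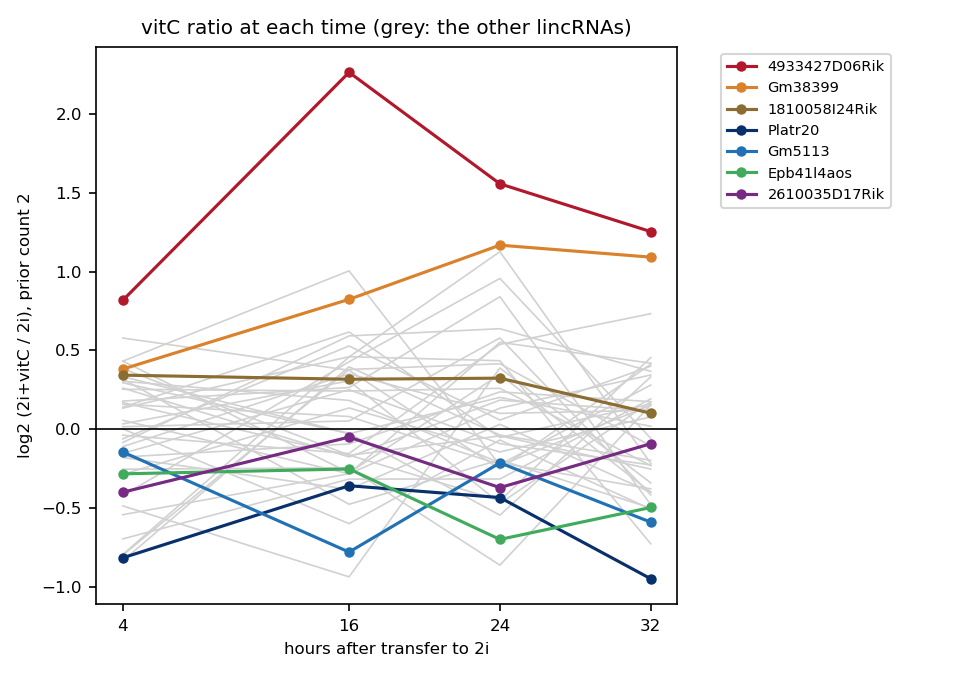
Log2 ratio of 2i+vitC to 2i (vertical, prior count 2) at 4, 16, 24, and 32 hr for the 42 lincRNAs, 1 pair of libraries per point, with the 7 lincRNAs of one direction at all times in colour. The ratios of 4933427D06Rik lie between 0.82 and 2.26, and those of Platr20 between -0.95 and -0.36.

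Of the lincRNAs that passed between times, those over 100 CPM had narrow intervals for vitC. The log2 fold change was 0.01 for Neat1 (95% interval -0.25 to 0.28), 0.12 for Lncenc1 (-0.09 to 0.33), and 0.13 for 1700020I14Rik (-0.11 to 0.37). For Malat1, which passed between no times, it was -0.06 (-0.31 to 0.20). The ratios of Neat1 at 4, 16, 24, and 32 hr were 0.03, 0.31, -0.47, and 0.17. For Trp53cor1 the interval was wide (0.24, -0.37 to 0.85). Among the lincRNAs that passed between times, the interval excluded 0 only for Epb41l4aos (-0.75 to -0.11) and Gm38399 (0.24 to 1.63). Neither passed for vitC after adjustment. A vitC effect that changed linearly with hours, a fit with 2 residual degrees of freedom, passed the threshold in edgeR for 0 lincRNAs and for 0% of all genes, and DESeq2 called 0 lincRNAs. None of the 42 had an unadjusted p-value under 0.05 in this edgeR fit, and the smallest p-value was that of Mir17hg (-0.03 log2 per hour, adjusted p = 1). Its log2 ratios of 2i+vitC to 2i at 4, 16, 24, and 32 hr were 0.32, -0.48, -0.19, and -0.50.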

How the data were processed

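RNA-seq was analysed in 8 libraries of E14 ESCs, 1 per combination of time and treatment, grouped by the sample labels. The authors deposited raw read counts per Ensembl gene, made from 50-base single-end reads with HTSeq after alignment with GSNAP (tools and the build NCBIM37/mm9 per the submitters' processing notes). The annotation release and the strand setting are not given in the sources used here. The labels and the paper give different units for the inhibitor concentrations (mM and µM). Lanes were read from the names of the deposited files.

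Classes, exon lengths, and neighbours came from GENCODE M21 (GRCm38), which held 32604 of the identifiers. Overlaps, strands, and distances between genes are those of GENCODE M21, and no gene positions are printed. Tests used edgeR 4.0.16 (TMM, quasi-likelihood, Benjamini-Hochberg) and, as an alternative, DESeq2 1.42.0 in R 4.3.3, and were tested on simulated counts. Reads carried no molecular identifiers, so the counts are of reads and not of molecules. Intervals for 1 library treat reads as independent and reflect counting error alone. They are Wilson 95% intervals on the TMM-scaled library size, with a median half-width of 15.9% to 33.8% of a member's level. A count of 3 corresponds to 0.163 to 0.631 CPM. Other alternatives were other scalings and filters, thinned counts, offsets for GC content and length, a Lars2 covariate, models without the treatment term or time block, and omission of each library or of the 4 hr pair. The members, lists, and motifs were chosen with earlier results of these data known. Named lincRNAs are those with a gene name and a known role, those past the threshold with one direction in both treatments (up to 8 each way at 24 hr against 4 hr and for vitC, 3 elsewhere), the 5 highest and 5 lowest for vitC, the 5 highest per kilobase, and those beside the limit. EU599041, Gm5113, Gm16001, Gm20707, Gm6712, 5031425E22Rik, and the lincRNAs named under single alternatives were singled out after their values were seen. The list of paraspeckle proteins is given in part, and 1 of its genes is not reported here.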

Additional observations from a re-analysis of the deposited data

Results flagged for a closer look

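In 3 lincRNAs every later library lay below the 4 hr library in 2i and above it in 2i+vitC. Of all 14931 genes tested, 365 (2.44%) showed this pattern and 360 (2.41%) the reverse one, which 0 lincRNAs showed. Whether 3 of 42 differs from the share over all genes was not tested. The difference between the treatments was not tested by itself for these, and with 1 library per combination each 4 hr library enters all 3 ratios of its treatment. For Platr28 the median log2 ratio of the later libraries to 4 hr was -0.544 in 2i (-0.601 to -0.297) and 0.131 in 2i+vitC (0.12 to 0.154). For 4933406P04Rik it was -0.309 in 2i (-0.312 to -0.0365) and 0.343 in 2i+vitC (0.0707 to 0.576). For 4933427D06Rik it was -0.406 in 2i (-1.3 to -0.205) and 0.143 in 2i+vitC (0.0293 to 0.533). All 3 are expressed at under 6 CPM, and none passed the threshold for a vitC effect changing with hours.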

How the results depend on the processing

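No lincRNA call changed direction. Of 397 values for 23 named results under the alternatives, 303 kept their direction and side of the threshold. A further 89 kept the direction but no longer passed, 5 passed newly, and 0 reversed. The 23 results include vitC values that did not pass in the main fit, for which keeping the side means not passing. All 89 values that no longer passed belonged to calls between times. For 24 hr against 4 hr the number of lincRNAs past the threshold fell from 6 to 3 with library totals only, to 3 without the treatment term, and to 0 with the Lars2 covariate. With single libraries left out it was 1 to 5, namely 2 without 2i 24 hr, 3 without 2i 4 hr, and 1 without 2i+vitC 4 hr or 24 hr. For 16 hr against 4 hr it fell from 5 to 0 with the Lars2 covariate and was 1 to 5 with single libraries left out (1 without 2i 16 hr, 2i+vitC 16 hr, or 2i+vitC 4 hr, and 2 without 2i 4 hr). For 32 hr against 4 hr it fell from 5 to 3 in thinned libraries and to 0 with the Lars2 covariate, and was 1 to 5 with single libraries left out (1 without 2i 32 hr, 2 without 2i+vitC 4 hr, and 3 without 2i+vitC 32 hr). In 5 alternatives 1 lincRNA was called lower at 32 hr, namely Snhg12 without a filter or without either 24 hr library, Gm6712 with at least 1 CPM in all 8 libraries, and Mir17hg without 2i 4 hr. The causes were not tested. For 32 hr against 16 hr it was 1 with DESeq2 and 2 without a filter, and for vitC it was 1 with DESeq2, 1 without a filter, 1 without the 4 hr pair, and 0 to 1 with single libraries left out. Neat1 at 24 hr and Gm53 at 32 hr each passed in 16 of 17 alternatives, all but the Lars2 covariate. The vitC test paired the 2i and 2i+vitC libraries of each time through the time block, and 0 lincRNAs passed with or without it. No paired analysis by replicate number was possible because the labels number no replicates. Low counts limited the members under 10 CPM. In each comparison with 4 hr, fewer of all genes passed as well when a library of either time was left out.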

Other observations

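The other long noncoding classes of GENCODE M21 (antisense, processed transcript, and similar biotypes) held 121 genes above the same limit of 2 CPM. Of these, 11 rose and 5 fell between 4 hr and 24 hr in edgeR (13.2% in all, with a median log2 fold change of 0.08). Of all genes tested, 11.5% rose and 8.98% fell. By 16 hr 7 rose and 3 fell (8.26% in all), while 9.16% of all genes rose and 7.24% fell. By 32 hr 14 rose and 10 fell (19.8% in all), while 13.5% of all genes rose and 11.8% fell. For vitC 0 passed.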
